A study of Mus musculus with 4 samples.

Results

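Long intergenic noncoding RNAs (lincRNAs) were examined in the distal colon of mice given the gut irritant dextran sulfate sodium. The 156 genes described here were chosen by annotation and by measured level: they are the autosomal genes that the GENCODE M21 annotation types as lincRNA and whose mean over all 4 libraries was at least 30 normalised reads, out of 1016 autosomal lincRNA genes and 22422 genes of any kind in the table. A normalised read is a whole number of reads multiplied by 1 factor per library, and the mean was taken over both genotypes together, so the levels that follow partly reflect the choice. Just above the minimum lay C130083M11Rik, Gm12319 and Gm12506, with means of 30.4, 30.6 and 30.9 normalised reads, and just below it Gm26798, Gm49654 and 4930552P12Rik, with 29.995, 29.98 and 29.6. The label held for most but not all members in a second annotation. RefSeq matched 115 of them and typed 105 as long noncoding RNA, but 8 as protein-coding and 2 as kinds of pseudogene.

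The study compared wild-type mice (2 libraries) with mice labelled Elf4fl/fl-Villin-Cre (2 libraries), in which loxP sites flank Elf4, a gene for an ETS-family transcription factor, and the Villin promoter drives Cre recombinase in the intestinal epithelium. All were females aged 6 weeks, all received dextran sulfate sodium at 2% for 5 days, and the distal colon was sequenced as whole tissue, so that every cell layer of the tissue contributed. The design text gives the strain as C57BL/6 for both genotypes, while the sample labels read C57BL/6 for wild type and C57BL/8 for Elf4fl/fl-Villin-Cre. No untreated mice were included. Nothing in the labels says that the libraries of a genotype came from separate animals, so the p-values measure only the spread between these libraries, which may be technical.

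A lincRNA is a long transcript that is spliced and processed much like a messenger RNA, is transcribed between the coding genes and is not known to be read into a long protein. Some act in the nucleus as scaffolds of ribonucleoprotein bodies, some are little more than the spliced remainder of a transcript whose hairpins or introns are cut into microRNAs or small nucleolar RNAs, and some act on a neighbouring gene. Many are made in few cell types, so in a tissue of mixed cells their levels follow cell composition as well as transcription. In bulk samples such as these, fewer cells of a type and less RNA per cell cannot be told apart.

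The 4 libraries were of like depth, with 16134509 and 15885028 reads in wild-type colon and 16023926 and 16425954 in Elf4fl/fl-Villin-Cre. Elf4 itself had 1588 and 1938 normalised reads in wild-type colon and 897 and 758 in Elf4fl/fl-Villin-Cre. Both Elf4fl/fl-Villin-Cre values lay below both wild-type values, and the log2 fold change (Elf4fl/fl-Villin-Cre over wild type, ± SE) was -1.09 ± 0.16 (limma adjusted p = 0.0139). Epithelial markers were abundant in every library, but lower in both of Elf4fl/fl-Villin-Cre. The 17 epithelial markers summed to 1054430 and 975055 normalised reads in wild-type colon and to 237627 and 399292 in Elf4fl/fl-Villin-Cre, and 14 of them fell and 0 rose, among them Car4, a carbonic anhydrase, and Vil1, the villin of the brush border (log2 fold change -1.89 ± 0.16 and -1.58 ± 0.17, limma adjusted p = 0.00737 and 0.00942). Their median log2 fold change was -1.58, and loss of Elf4 within epithelial cells and a smaller share of epithelial RNA cannot be told apart in the Elf4 value. Replicates of the lincRNAs differed by a median ratio of 1.27 in wild-type colon and 1.22 in Elf4fl/fl-Villin-Cre, and by more than 2-fold for 9 and 15 of the 156 genes.

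Among the 156 lincRNAs, 25 rose and 5 fell in Elf4fl/fl-Villin-Cre colon and 126 did not pass the test (limma on log2 of the value plus 1, so that folds of low genes are understated, Benjamini-Hochberg adjustment over all 22050 genes tested, adjusted p under 0.05). Over all genes tested, 6.86% rose and 8.60% fell, against 16.0% and 3.21% of the lincRNAs. Among all genes with a mean of at least 30 the shares were 9.58% and 12.8%. The median log2 fold change of the lincRNAs was 0.27, beside 0.11 over all genes tested. In 69 lincRNAs both Elf4fl/fl-Villin-Cre values were above both wild-type values and in 31 both were below, where the same held for 35.0% and 27.2% of all genes tested. In the other 56 the genotypes overlapped.

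**Figure D1:**
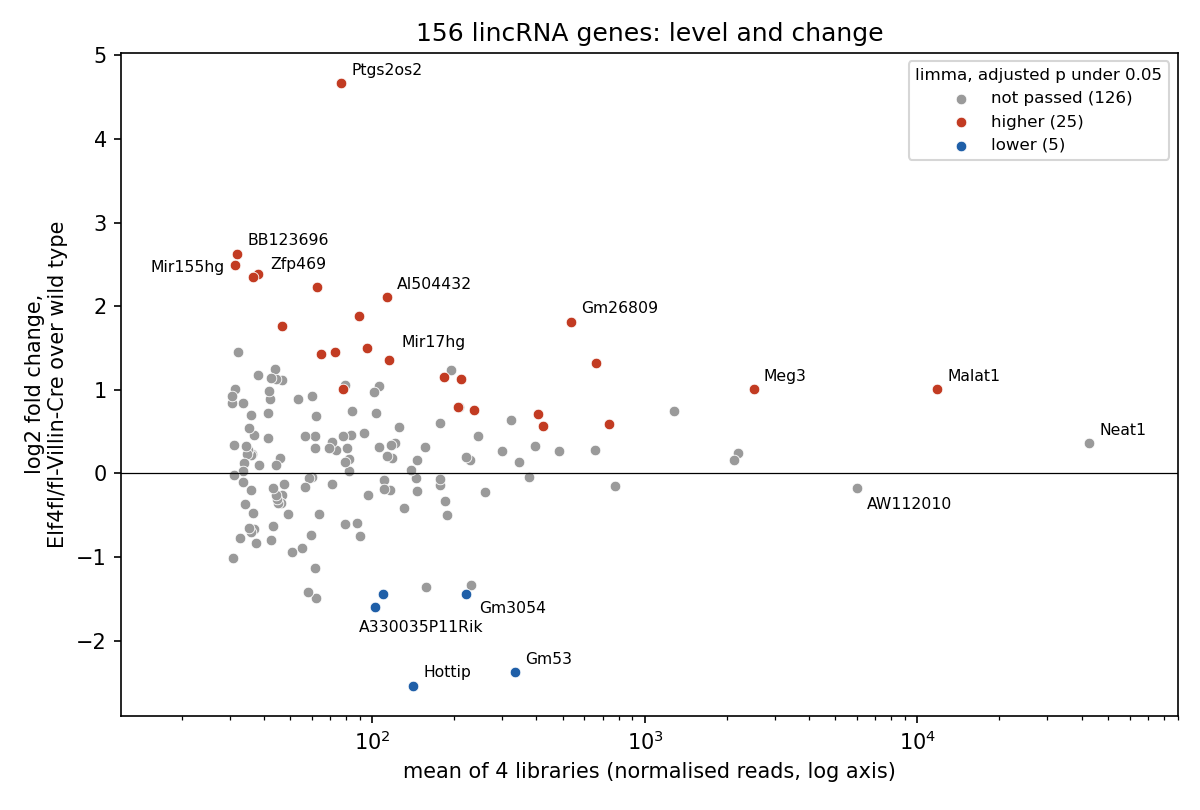
Each point is 1 of the 156 lincRNA genes, with its mean over the 4 libraries in normalised reads on a log axis and its log2 fold change between the genotypes (positive where Elf4fl/fl-Villin-Cre was higher) on the vertical axis. The 25 genes that rose lie across the range of levels, from Mir155hg near the minimum to Malat1, and the 5 that fell have means above 100 normalised reads.

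These counts moved with the scaling and with single libraries. With every library scaled to the same total, 44 lincRNAs rose and 4 fell (beside 18.5% and 5.34% of all genes tested), while the median of all genes moved up by 0.30, and with quantile scaling 15 rose and 5 fell (beside 5.58% and 5.90% of all genes tested). edgeR on the recovered reads gave 29 higher and 5 lower, which included all 30 limma calls, beside 9.88% and 13.5% of all genes it tested. With wild type replicate 2 left out edgeR gave 8 higher and 2 lower (2.60% and 4.41% over all genes it tested), and with Elf4fl/fl-Villin-Cre replicate 1 left out it gave 14 and 4 (4.70% and 7.23%). With wild type replicate 1 left out it gave 15 and 4 (5.84% and 9.11%), and with Elf4fl/fl-Villin-Cre replicate 2 left out it gave 24 and 12 (8.64% and 12.1%). Of the 30 genes called by limma, 9 were called by edgeR in all 4 of those fits: Ptgs2os2, BB123696, Mir155hg, AI504432, Gm19951, Gm26809, Meg3, Hottip and Gm3054. limma without its variance trend, or with any 1 library left out, called 0 lincRNAs and 0 genes of any kind. At an unadjusted p under 0.05 limma had 41 lincRNAs higher and 10 lower without the trend, and 24 to 38 higher and 5 to 14 lower without 1 library.

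A minimum on the mean over both genotypes lets a gene in through the genotype in which it is high. For 30 of the 156 lincRNAs the mean of 1 genotype was under 30 normalised reads (23 in wild-type colon and 7 in Elf4fl/fl-Villin-Cre), and of these 7 rose. Those 7 were Ptgs2os2, BB123696, Mir155hg, Zfp469, F730311O21Rik, Gm36161 and C78859, all under 30 in wild-type colon. They entered through Elf4fl/fl-Villin-Cre and are all among the 10 largest increases, which therefore partly reflect the choice. Of these, Ptgs2os2, BB123696 and Mir155hg are also in the list of edgeR calls above. Of the other 126, at or above 30 in both genotypes, 18 rose and 5 fell. Strand was not stated for the counting, and 40 lincRNAs share exon bases with another annotated gene, 36 of them with a gene on the opposite strand, whose reads could not be told apart. Of the 116 with no such overlap, 18 rose and 5 fell. Of the 8 genes that RefSeq types as protein-coding, 3 rose and 0 fell.

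Other gene types give the setting. Of 12956 autosomal coding genes with a mean of at least 30, 9.76% rose and 13.6% fell. Of 143 antisense genes at that level 2.10% rose and 5.59% fell, and of 113 processed transcripts, another class of noncoding gene, 13.3% rose and 3.54% fell. Less abundant lincRNAs, 808 genes with a mean from 1 to under 30, were called in few cases, 2.10% higher and 0.124% lower. The classes differ in level and in the number of reads behind each gene, and the differences between them were not tested.

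**Figure D2:**
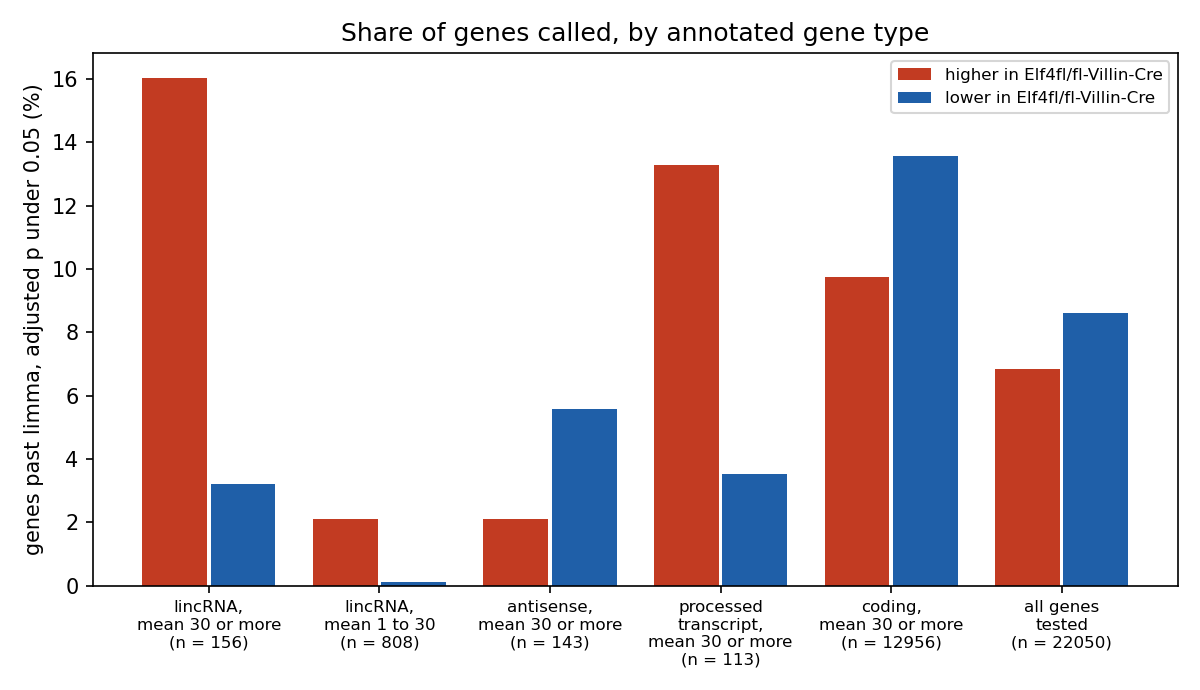
Bars give the share of genes, in percent, that passed limma as higher or as lower in Elf4fl/fl-Villin-Cre colon, by annotated gene type. More lincRNAs at a mean of 30 or more rose than fell (16.0% against 3.21%), as did processed transcripts, while fewer coding genes rose than fell (9.76% against 13.6%).

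Of the 8 lincRNAs with the highest means, Malat1 and Meg3 rose and the other 6 did not pass. Neat1, the scaffold RNA of the nuclear bodies called paraspeckles, took 51.0% and 48.8% of the reads of the 156 genes in wild-type colon and 49.1% and 47.8% in Elf4fl/fl-Villin-Cre. It lies at chr19:5824708-5845478 (mm10, minus strand) and is a single exon block of 20.8 kb. Neat1 had 38680.5 and 35704 normalised reads in wild-type colon and 48244 and 47389 in Elf4fl/fl-Villin-Cre. Both Elf4fl/fl-Villin-Cre values were higher, but the difference of 0.36 ± 0.22 on the log2 scale did not pass limma (adjusted p = 0.306). Of 15 genes for paraspeckle proteins, which bind Neat1, edgeR called 1 higher and 1 lower. The lower one was Smarca4 (log2 fold change -0.40 in limma, edgeR adjusted p = 0.0487). In limma 1 of the 15 rose and 0 fell, with a median log2 fold change of 0.14. The gene that passed, Nudt21, a cleavage and polyadenylation factor, rose by 0.52 (limma adjusted p = 0.0485), was called by edgeR in 0 of 4 fits that each left out 1 library (highest adjusted p = 0.180), and stood beside 7 higher calls in the list under equal library totals and 3 with quantile scaling.

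Malat1, which gathers in the splicing-factor domains called nuclear speckles, is the neighbouring nuclear RNA on chromosome 19 (chr19:5795690-5802672, minus strand, 1 exon block). It had 7306 and 8349.6 normalised reads in wild-type colon and 13866 and 17714 in Elf4fl/fl-Villin-Cre. The genotypes did not overlap, and Malat1 rose 2.02-fold, by 1.005 ± 0.19 on the log2 scale (limma adjusted p = 0.0229). With wild type replicate 1 or wild type replicate 2 left out edgeR gave no call (highest adjusted p = 0.0857). An opposite-strand gene, Gm37376, covers 6.49% of its exon bases. Per kb of exon, AW112010, Neat1 and Malat1 ranked highest of the 156, with means of 7432, 2046 and 1691 normalised reads per kb against a median of 32.3.

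AW112010, an RNA of interferon-stimulated and immune cells from which a short protein can be made, had 7253 and 5313 normalised reads in wild-type colon and 6980.2 and 4356 in Elf4fl/fl-Villin-Cre. The genotypes overlapped, and replicate 1 was the higher in each. Its log2 fold change of -0.17 ± 0.27 did not pass (limma adjusted p = 0.706) and turned to 0.15 under equal library totals and to 0.20 with quantile scaling. Its nearest coding gene, Ms4a8a, 11663 bp away, fell by 1.04 (limma adjusted p = 0.0358), a call that edgeR kept in 1 of the 4 fits without 1 library, that with Elf4fl/fl-Villin-Cre replicate 2 left out.

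The remaining genes with the highest means in normalised reads, other than Meg3, did not pass the test. 1700020I14Rik, which RefSeq names Oip5os1 and which is known as Cyrano, directs the decay of a microRNA. It had 1658 and 2414 normalised reads in wild-type colon and 2408 and 2317 in Elf4fl/fl-Villin-Cre, with overlap. 2900097C17Rik, which RefSeq names Norad and which binds Pumilio proteins in the cytoplasm, had 1966 and 2057 in wild-type colon and 2239.6 and 2252 in Elf4fl/fl-Villin-Cre. All 4 values lay close together, and neither gene passed (log2 fold change 0.24 and 0.16, limma adjusted p = 0.450 and 0.417). AU020206 had 1081 and 803 in wild-type colon and 1997 and 1229.9 in Elf4fl/fl-Villin-Cre, and Tmem250-ps had 844 and 790.3 in wild-type colon and 688 and 788 in Elf4fl/fl-Villin-Cre. AU020206 was higher and Tmem250-ps slightly lower without overlap, and neither passed limma (log2 fold change 0.75 and -0.15, adjusted p = 0.112 and 0.504), the latter with its sign turned to 0.17 under equal library totals. The list of nuclear-retained and structural lncRNAs also holds Oip5os1, which was not matched to 1700020I14Rik and is not in its counts. Among the 9 genes of that list found by name, 2 rose, Malat1 and Meg3, and 0 fell, with a median of 0.79. The count was 6 higher under equal library totals and 3 with quantile scaling, and in edgeR it was 1 with wild type replicate 1 or wild type replicate 2 left out. Miat, a nuclear RNA also called Gomafu, had 153 and 144 normalised reads in wild-type colon and 201 and 330.3 in Elf4fl/fl-Villin-Cre, and did not pass (log2 fold change 0.79, limma adjusted p = 0.0966).

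The largest change was in Ptgs2os2, a lincRNA that macrophages make on meeting bacterial products and that is also known as lincRNA-Cox2. It had 3.09 and 7.38 normalised reads in wild-type colon and 149.8 and 145 in Elf4fl/fl-Villin-Cre, or 10 against 358 reads over the 2 libraries of each genotype. The gene was near the lower limit of counting in wild-type colon and clearly counted in both Elf4fl/fl-Villin-Cre libraries. Ptgs2os2 rose by 4.67 ± 0.44 in log2 units (limma adjusted p = 0.00799), and edgeR called it without any 1 of the 4 libraries (highest adjusted p = 0.0204). It lies at chr1:150159043-150164948 on the minus strand, and its nearest coding gene is Ptgs2, 50816 bp away, which encodes the inducible prostaglandin-forming cyclooxygenase. Ptgs2 had 325 and 185 normalised reads in wild-type colon and 9327 and 8253 in Elf4fl/fl-Villin-Cre. The coding gene rose beside its neighbour, by 5.15 ± 0.27 (limma adjusted p = 0.00401).

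The RefSeq promoter window of Ptgs2os2 (GRCm38.p6, chr1:150164899-150165198, minus strand, 250 bases before the start of transcription and 50 after it) is shown because it belongs to the gene with the largest change, and capitals mark the motif matches found in it.
Ptgs2os2 promoter: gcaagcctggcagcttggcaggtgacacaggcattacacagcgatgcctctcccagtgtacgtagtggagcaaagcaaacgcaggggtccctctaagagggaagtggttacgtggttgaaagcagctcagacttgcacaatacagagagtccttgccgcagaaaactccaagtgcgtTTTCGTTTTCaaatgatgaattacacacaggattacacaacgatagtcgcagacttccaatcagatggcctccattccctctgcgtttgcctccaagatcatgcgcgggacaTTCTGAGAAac
The first match, on the other strand, fits the interferon-stimulated response element, and the second fits the STAT motif TTCNNNGAA.

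Other lincRNAs of the list described in immune cells or inflammation went the same way in part. Of the 17 genes on that list found by name, 6 rose and 0 fell, with a median log2 fold change of 1.005. Morrbid, also on the list, goes by Gm14005 in GENCODE and is not in the counts for this list. Those that rose of the 17 were Ptgs2os2, Mir155hg and Malat1 among the 156 genes, and Ptgs2os, Gas5 and F630028O10Rik outside them. Of the latter, F630028O10Rik rose by 1.77 and was called by edgeR in all 4 fits without 1 library (highest adjusted p = 0.0449), while Ptgs2os rose by 2.05 (limma adjusted p = 0.0499) and was called in none (highest adjusted p = 0.119). edgeR called 4, 3, 4 and 5 of the list higher with wild type replicate 1, wild type replicate 2, Elf4fl/fl-Villin-Cre replicate 1 and Elf4fl/fl-Villin-Cre replicate 2 left out in turn, and 0, 0, 0 and 1 lower. Gm14005, listed in RefSeq as Morrbid, an RNA of short-lived myeloid cells next to the cell death gene Bcl2l11, had 50.4 and 28.5 normalised reads in wild-type colon and 117 and 94.5 in Elf4fl/fl-Villin-Cre. The genotypes did not overlap, and it rose by 1.45 ± 0.34 (limma adjusted p = 0.0410), with edgeR calls lost with wild type replicate 2 or Elf4fl/fl-Villin-Cre replicate 1 left out (highest adjusted p = 0.126). Bcl2l11 had 430.1 and 502 in wild-type colon and 704 and 565 in Elf4fl/fl-Villin-Cre, higher without overlap but not past limma (adjusted p = 0.136). Pvt1, which lies downstream of Myc, had 44.2 and 37.9 in wild-type colon and 83.9 and 73.6 in Elf4fl/fl-Villin-Cre, and Mirt1 had 89.5 and 50.6 in wild-type colon and 158 and 125 in Elf4fl/fl-Villin-Cre. These were higher without overlap, and neither passed limma (log2 fold change 0.92 and 1.05, adjusted p = 0.0663 and 0.0824).

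Markers of myeloid cells rose in the same libraries. Of 13 neutrophil markers 9 rose and 0 fell (median log2 fold change 2.33), such as the colony-stimulating factor receptor gene Csf3r, which rose by 2.15 ± 0.18 (limma adjusted p = 0.00737), with sums of 14633.7 and 14378 normalised reads in wild-type colon and 16788 and 17602 in Elf4fl/fl-Villin-Cre. Most of each sum is 1 marker, Ly6g, the only one with a negative log2 fold change (-0.40, limma adjusted p = 0.168). Summed over the other 12, the values were 1970.3 and 858 in wild-type colon and 7683 and 6815 in Elf4fl/fl-Villin-Cre. Of 14 markers of monocytes and macrophages 12 rose and 0 fell (median 0.93), with sums of 17753 and 13800.5 in wild-type colon and 38128 and 27007 in Elf4fl/fl-Villin-Cre. With wild type replicate 1, wild type replicate 2 or Elf4fl/fl-Villin-Cre replicate 1 left out, edgeR called 7, 4 and 6 of these 14. Of 12 T and NK cell markers 1 rose (median 0.34), and of 10 B and plasma cell markers 1 rose (median 0.86), with 0 lower in each list. At an unadjusted p under 0.05 limma had 2 of the former and 6 of the latter higher, and under equal library totals 2 and 4 were called. edgeR called 0 of the T and NK cell markers with wild type replicate 1, wild type replicate 2 or Elf4fl/fl-Villin-Cre replicate 1 left out, and 3, 0, 0 and 5 of the B and plasma cell markers with wild type replicate 1, wild type replicate 2, Elf4fl/fl-Villin-Cre replicate 1 and Elf4fl/fl-Villin-Cre replicate 2 left out in turn. No marker was at 0 in all libraries, and the part of these cell types in the lincRNA changes was not tested.

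Host genes of microRNAs rose in several cases. A host gene is transcribed as a long RNA from which hairpins are cut and trimmed to the mature microRNA, whose seed, bases 2 to 8, pairs with target messenger RNAs. The search for annotated microRNA hairpins left out 4 of the 156 genes, of which 1 rose and 0 fell. Among the genes searched, hairpins lay within 13, with 35 hairpins and 64 mature sequences in RefSeq. Of those 13 hosts 5 rose and 0 fell: Mir155hg, Mir142hg, Mir17hg, C78859 and Meg3. Mature sequences from the first 4 of these are shown to name what the called hosts carry, with seeds in capitals (RefSeq, GRCm38.p6).
mmu-miR-155-5p, from Mir155hg: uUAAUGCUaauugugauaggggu
mmu-miR-142a-5p, from Mir142hg: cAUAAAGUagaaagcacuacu
mmu-miR-142a-3p, from Mir142hg: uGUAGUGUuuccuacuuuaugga
mmu-miR-138-5p, from C78859: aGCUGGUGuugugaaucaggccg
mmu-miR-17-5p, from Mir17hg: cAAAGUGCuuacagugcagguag
mmu-miR-20a-5p, from Mir17hg: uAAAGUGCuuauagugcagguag
mmu-miR-18a-5p, from Mir17hg: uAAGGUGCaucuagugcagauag
mmu-miR-19a-3p, from Mir17hg: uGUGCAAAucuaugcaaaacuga
mmu-miR-19b-3p, from Mir17hg: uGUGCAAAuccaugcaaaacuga
mmu-miR-92a-3p, from Mir17hg: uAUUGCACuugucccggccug
Within Mir17hg, miR-17-5p and miR-20a-5p share the seed AAAGUGC and miR-19a-3p and miR-19b-3p share GUGCAAA. The mature microRNAs were not measured, and the values below are those of the host RNAs.

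Mir155hg, known as Bic, is switched on in activated lymphocytes and macrophages (chr16:84703167-84715245, plus strand). It had 7.20 and 10.5 normalised reads in wild-type colon and 50.5 and 56.9 in Elf4fl/fl-Villin-Cre, or 17 against 130 reads over 2 libraries each. The genotypes stood well apart, and Mir155hg rose by 2.49 ± 0.38 (limma adjusted p = 0.0146), with an edgeR call in all 4 fits without 1 library (highest adjusted p = 0.0445). Mir142hg, whose microRNAs are made throughout the blood cell lineages, had 29.8 and 40.0 in wild-type colon and 97.7 and 91.1 in Elf4fl/fl-Villin-Cre (chr11:87755577-87757270, plus strand). It rose by 1.42 ± 0.28 (limma adjusted p = 0.0244), and edgeR kept the call only with Elf4fl/fl-Villin-Cre replicate 2 left out (highest adjusted p = 0.0765). Mir17hg, whose microRNA cluster favours cell proliferation and survival, had 47.3 and 84.3 in wild-type colon and 154 and 175 in Elf4fl/fl-Villin-Cre (chr14:115042879-115046727, plus strand). It rose by 1.36 ± 0.31 (limma adjusted p = 0.0377), and edgeR gave no call with wild type replicate 1 or Elf4fl/fl-Villin-Cre replicate 2 left out (highest adjusted p = 0.0829). C78859, an unspliced transcript of 5.94 kb over Mir138-2, had 16.5 and 25.3 in wild-type colon and 77.4 and 66.9 in Elf4fl/fl-Villin-Cre. Its values did not overlap, and it rose by 1.77 ± 0.34 (limma adjusted p = 0.0237), again with the edgeR call kept only with Elf4fl/fl-Villin-Cre replicate 2 left out (highest adjusted p = 0.0650).

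On the list of microRNA host genes, which has host genes of other annotated types as well, 4 of 11 measured genes rose and 0 fell (median 0.89), Mir22hg in addition to Mir155hg, Mir142hg and Mir17hg. Under equal library totals 8 of the 11 rose and with quantile scaling 2. Mir22hg rose by 0.70 (limma adjusted p = 0.0182), a call absent from edgeR with wild type replicate 2 or Elf4fl/fl-Villin-Cre replicate 1 left out (highest adjusted p = 0.0564). edgeR called 2, 2, 2 and 3 of them with wild type replicate 1, wild type replicate 2, Elf4fl/fl-Villin-Cre replicate 1 and Elf4fl/fl-Villin-Cre replicate 2 left out in turn. Carmn, a smooth muscle RNA on the same list, had 274 and 231 normalised reads in wild-type colon and 366 and 417 in Elf4fl/fl-Villin-Cre. It was higher without overlap, missed the limma threshold (log2 fold change 0.63, adjusted p = 0.0550) and passed edgeR (adjusted p = 0.0437), though in none of the edgeR fits without 1 library. Of 10 smooth muscle markers 0 rose and 1 fell (median log2 fold change -0.47). Their 1 call, the intermediate filament gene Des, was absent under equal library totals and with quantile scaling and was kept by edgeR only with Elf4fl/fl-Villin-Cre replicate 2 left out.

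Host genes of small nucleolar RNAs, which guide the chemical modification of ribosomal RNA and are cut from the introns of these transcripts, rose or did not pass. Of 15 measured genes on this list, 5 belong to the 156 lincRNAs. Snhg12 had 120.4 and 104 normalised reads in wild-type colon and 283 and 222 in Elf4fl/fl-Villin-Cre. It rose by 1.16 ± 0.21 without overlap (limma adjusted p = 0.0198), and lost its edgeR call with wild type replicate 2 or Elf4fl/fl-Villin-Cre replicate 1 left out (highest adjusted p = 0.0793). Snhg6 had 135 and 144 in wild-type colon and 242 and 186 in Elf4fl/fl-Villin-Cre, Snhg20 had 230.5 and 182 in wild-type colon and 283 and 279 in Elf4fl/fl-Villin-Cre, and Epb41l4aos had 78.2 and 76.9 in wild-type colon and 138 and 120.4 in Elf4fl/fl-Villin-Cre. All 3 were higher without overlap, and none passed limma (log2 fold change 0.60, 0.45 and 0.72, adjusted p = 0.101, 0.148 and 0.0697). Snhg18 had 405 and 355 in wild-type colon and 355 and 381 in Elf4fl/fl-Villin-Cre, with overlap (log2 fold change -0.04, limma adjusted p = 0.868), and its sign turned under equal library totals (0.27).

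Over the whole list of small nucleolar RNA hosts 5 of 15 rose and 0 fell, with a median log2 fold change of 0.75. Besides Snhg12 these were Gas5, Snhg1, Snhg11 and Snhg17, which are annotated as other types. Snhg11 and Snhg17 rose by 1.31 and 1.20 (limma adjusted p = 0.0149 and 0.0137), Snhg1 by 1.23 and Gas5 by 0.75 (limma adjusted p = 0.0162 and 0.0384). edgeR kept Snhg11 and Snhg17 in all 4 fits without 1 library, lost Snhg1 with wild type replicate 2 left out and called Gas5 only with Elf4fl/fl-Villin-Cre replicate 2 left out. The list had 12 higher calls under equal library totals and 5 with quantile scaling, and in edgeR it had 2 with wild type replicate 2 left out and 3 with Elf4fl/fl-Villin-Cre replicate 1 left out. Genes for the proteins that package small nucleolar RNAs did not pass limma or edgeR in any of 14 cases (median 0.25), nor did any of 15 factors of nonsense-mediated decay, the pathway that degrades many such host transcripts (median -0.08). At an unadjusted p under 0.05 limma had 3 of the former higher and 0 lower, and 1 of the latter higher and 0 lower. Under equal library totals 7 of the former and 2 of the latter were called higher.

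Imprinted lincRNAs are expressed from 1 parental allele and several are abundant in the mesenchyme of the embryo. Meg3, made from the maternal allele, had 1509 and 1822 normalised reads in wild-type colon and 3261 and 3421 in Elf4fl/fl-Villin-Cre (chr12:109541001-109571726, plus strand, 18.1 kb of exon). It rose 2.01-fold, by 1.01 ± 0.15 (limma adjusted p = 0.0135), with an edgeR call in all 4 fits without 1 library (highest adjusted p = 0.0363). Mirg, from the same imprinted domain, had 28.8 and 28.5 in wild-type colon and 43.2 and 67.7 in Elf4fl/fl-Villin-Cre, higher without overlap but not past limma (log2 fold change 0.89, adjusted p = 0.132). H19, a maternally expressed RNA of growing tissue, had 41.2 and 22.1 in wild-type colon and 21.2 and 58.5 in Elf4fl/fl-Villin-Cre, so that replicates differed more than genotypes (log2 fold change 0.22 ± 0.57, limma adjusted p = 0.826). Of 9 imprinted lncRNAs measured, 2 rose, Meg3 and Rian, and 0 fell (median 1.01), against 6 higher calls under equal library totals. Rian rose by 1.07 (limma adjusted p = 0.0240), and edgeR gave no call with wild type replicate 1 or wild type replicate 2 left out (highest adjusted p = 0.0663).

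Fibroblast markers were higher beside Meg3. Of 10 such markers 4 rose and 0 fell, with a median of 0.60 and sums of 67511 and 51946 normalised reads in wild-type colon and 96154 and 103941 in Elf4fl/fl-Villin-Cre. The small matrix proteoglycan gene Dcn rose by 1.84 ± 0.16 and the growth factor receptor gene Pdgfrb by 1.54 ± 0.19 (limma adjusted p = 0.00742 and 0.0105), and edgeR called both in all 4 fits without 1 library. Under equal library totals 7 of the 10 rose, and with wild type replicate 2 left out edgeR called 2. Endothelial markers rose in 2 of 10 cases (median 0.57, and 7 under equal library totals), markers of enteric neurons and glia in 2 of 10 (median 0.53, and 6 under equal library totals), and erythroid markers in 4 of 7 (median 2.57), with 0 lower in each. With wild type replicate 2 left out edgeR called 0 of the endothelial markers, and with wild type replicate 1 left out it called 1 of the markers of enteric neurons and glia. The part of these cell types in the lincRNA values was not tested.

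The 5 lincRNAs that fell include 2 that lie in Hox clusters, whose genes are used in order along the gut. Hottip, transcribed from the distal end of the HoxA cluster and known to keep the neighbouring Hoxa genes active, had 201 and 281 normalised reads in wild-type colon and 32.6 and 49.3 in Elf4fl/fl-Villin-Cre (chr6:52262775-52267603, plus strand, 2 exons). Both Elf4fl/fl-Villin-Cre values were far below both wild-type values. Hottip fell by 2.54 ± 0.30 in log2 units (limma adjusted p = 0.00972), and edgeR called it in all 4 fits without 1 library (highest adjusted p = 0.0351). Hoxa13, the last gene of the cluster, starts 1895 bp away in the opposite direction. It had 640.0 and 1052 in wild-type colon and 328 and 393 in Elf4fl/fl-Villin-Cre, lower without overlap, and fell by 1.19 ± 0.25 (limma adjusted p = 0.0303), a call absent from edgeR with wild type replicate 2 left out (adjusted p = 0.0546).

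Gm53 lies in the HoxB cluster (chr11:96251105-96264868, plus strand) and had 433 and 666 normalised reads in wild-type colon and 61.1 and 171 in Elf4fl/fl-Villin-Cre. It fell by 2.38 ± 0.48 (limma adjusted p = 0.0271), but edgeR gave no call with wild type replicate 2 left out (adjusted p = 0.0920). Its nearest coding gene, Hoxb9, had 227 and 328 in wild-type colon and 70.0 and 119.6 in Elf4fl/fl-Villin-Cre. Hoxb9 fell with it, by 1.57 ± 0.32 (limma adjusted p = 0.0268), and was likewise not called by edgeR with wild type replicate 2 left out (adjusted p = 0.0919). In the list of mesenchymal and Hox lncRNAs, 1 of 13 rose, Meg3, and 2 fell, Hottip and Hoxa11os. The median log2 fold change of the list was 0.63, and 10 of the 13 were positive. Its other Hox transcripts did not pass limma. Hoxd3os1, Hotairm1, Hoxb3os and Hoxb5os were higher (log2 fold change 1.48, 1.07, 0.70 and 0.47) and Hoxaas3 was lower (-1.18). With equal library totals 6 of the 13 rose and 1 fell. Hoxa11os had 726 and 818 in wild-type colon and 329 and 472 in Elf4fl/fl-Villin-Cre (log2 fold change -0.97, limma adjusted p = 0.0293), and edgeR gave no call with wild type replicate 2 left out (adjusted p = 0.0848).

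The other 3 that fell each lie within 4707 bp of a coding gene that fell. Gm3054 is a short transcript, 0.265 kb of exon, 4707 bp from Muc3, a membrane mucin gene of enterocytes. It had 322 and 325 normalised reads in wild-type colon and 109 and 128 in Elf4fl/fl-Villin-Cre, with replicates close together, and fell by 1.44 ± 0.17 (limma adjusted p = 0.00989), a call that edgeR made in all 4 fits without 1 library (highest adjusted p = 0.0364). Muc3 had 49368 and 59017 in wild-type colon and 10885 and 17689 in Elf4fl/fl-Villin-Cre, and fell by 1.96 ± 0.29 (limma adjusted p = 0.0136). A330035P11Rik starts 64 bp from Tm9sf2, a gene for a Golgi and endosome membrane protein, and runs the other way. It had 139.9 and 169 in wild-type colon and 41.5 and 60.2 in Elf4fl/fl-Villin-Cre, and fell by 1.60 ± 0.27 (limma adjusted p = 0.0180). Tm9sf2 had 9295 and 9953 in wild-type colon and 4386 and 5213 in Elf4fl/fl-Villin-Cre, and fell by 1.01 ± 0.16 (limma adjusted p = 0.0152). Neither gene of this pair was called by edgeR with wild type replicate 2 left out (adjusted p = 0.0652 and 0.0536). Gm38910 had 177 and 140.1 in wild-type colon and 41.5 and 78.6 in Elf4fl/fl-Villin-Cre, and fell by 1.45 ± 0.35 (limma adjusted p = 0.0416). edgeR called it only with Elf4fl/fl-Villin-Cre replicate 2 left out (highest adjusted p = 0.109). Its neighbour Mansc1 had 654 and 642 in wild-type colon and 121 and 271 in Elf4fl/fl-Villin-Cre, and fell by 1.84 ± 0.36 (limma adjusted p = 0.0251), with the edgeR call gone with wild type replicate 1 or wild type replicate 2 left out (highest adjusted p = 0.0719).

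In each of the 5 genes that fell, Elf4fl/fl-Villin-Cre replicate 1 was the lower replicate, as was the sum of epithelial markers (237627 against 399292). Over the 31 lincRNAs with both Elf4fl/fl-Villin-Cre values below both wild-type values, replicate 1 was the lower in 27, while over all 156 it was the lower in 83. Of the 69 with both values above, replicate 1 was the higher in 47. Both sets were picked by these same values, and no such count was made over all genes tested. The part of epithelial content in these values was not tested.

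Most of the remaining lincRNAs among the 10 largest increases have predicted or clone names and no settled function. BB123696 had 10.3 and 6.32 normalised reads in wild-type colon and 57.0 and 53.5 in Elf4fl/fl-Villin-Cre, AI504432 had 45.3 and 37.9 in wild-type colon and 212 and 156 in Elf4fl/fl-Villin-Cre, and Gm19951 had 47.3 and 29.5 in wild-type colon and 145 and 136 in Elf4fl/fl-Villin-Cre. Gm26809 (chr6:18844220-18847360, plus strand) had 231 and 239 in wild-type colon and 759 and 911 in Elf4fl/fl-Villin-Cre. In these 4 genes the genotypes stood apart by more than the replicates, with log2 rises of 2.63, 2.11, 1.88 and 1.82 (limma adjusted p = 0.0142, 0.0101, 0.0156 and 0.00737). edgeR called each of them in all 4 fits without 1 library (highest adjusted p = 0.0498, 0.0443, 0.0499 and 0.0303). Gm26809 shares 28.7% of its exon bases with the opposite-strand gene Gm20186. AI504432 lies 1434 bp from Kcna3, a potassium channel gene of T cells and macrophages, which had 6.17 and 7.38 in wild-type colon and 29.3 and 15.1 in Elf4fl/fl-Villin-Cre and did not pass limma (log2 fold change 1.51, adjusted p = 0.0974).

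Zfp469, typed as lincRNA by GENCODE and as protein-coding by RefSeq, had 16.5 and 7.38 normalised reads in wild-type colon and 48.9 and 79.4 in Elf4fl/fl-Villin-Cre. F730311O21Rik had 10.3 and 11.6 in wild-type colon and 79.8 and 44.3 in Elf4fl/fl-Villin-Cre, and Gm36161 had 23.7 and 16.9 in wild-type colon and 147 and 64.4 in Elf4fl/fl-Villin-Cre. The replicates of these 3 lay further apart, yet the genotypes did not overlap, and they rose by 2.39, 2.34 and 2.23 (limma adjusted p = 0.0277, 0.0193 and 0.0274). edgeR lost Zfp469 with wild type replicate 2 left out (adjusted p = 0.0839), and called F730311O21Rik and Gm36161 only with Elf4fl/fl-Villin-Cre replicate 2 left out (highest adjusted p = 0.0703 and 0.107). Gm21188, the coding gene nearest to Gm36161, had 25.7 and 21.1 in wild-type colon and 105 and 71.1 in Elf4fl/fl-Villin-Cre and rose by 1.85 (limma adjusted p = 0.0193), with the edgeR call gone with wild type replicate 2 left out (adjusted p = 0.0765). How reads that fit several genes were counted is not given in the sources used here. For the other coding neighbours of the 10 largest increases, Auh, Mrpl39, Zfpm1, Tmcc2, Efcab11, Lsm8 and Slc12a3, the log2 fold change lay between -0.20 (Mrpl39) and 0.52 (Auh), and none passed limma.

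**Figure D3:**
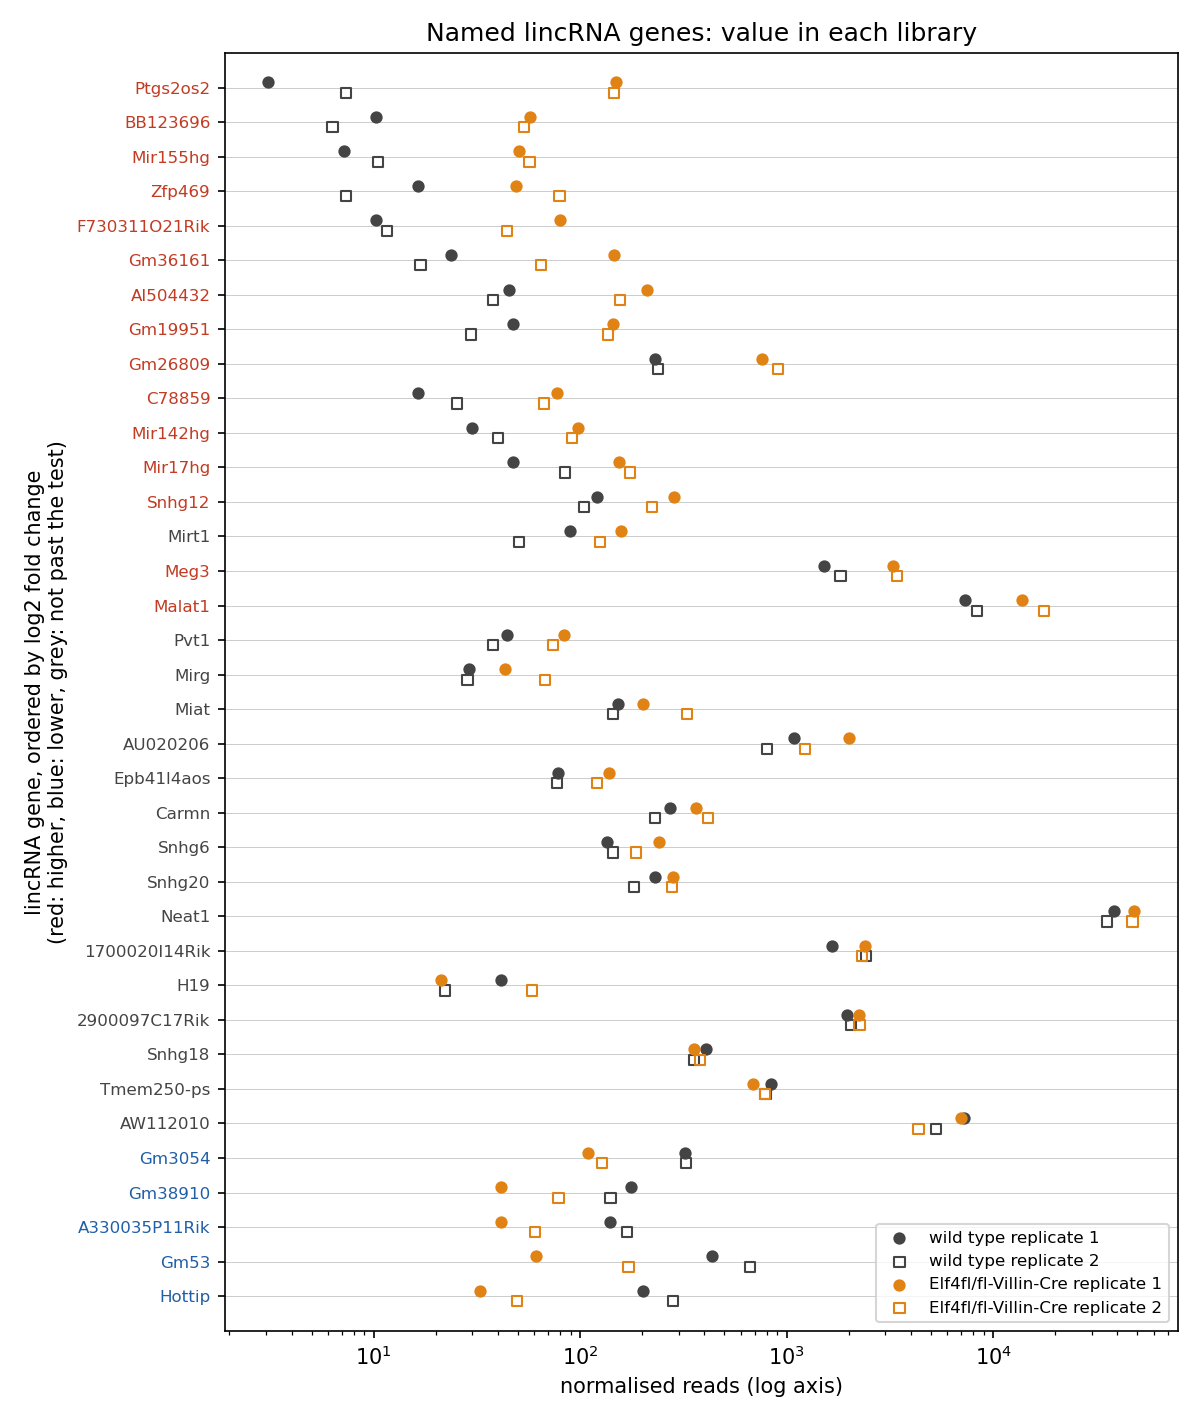
Each row is 1 named lincRNA, ordered by log2 fold change, and the points give its value in each of the 4 libraries in normalised reads on a log axis, with symbols offset vertically for legibility. The genes that passed limma as higher (red names) or lower (blue names) show no overlap between genotypes, and neither do several that did not pass, such as Neat1 at 38680.5 and 35704 against 48244 and 47389.

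Coding neighbours were called with all of the lincRNAs that fell and with few of those that rose. The nearest autosomal coding gene passed limma in the same direction for 9 of the 30 called lincRNAs, 5 of the 5 that fell and 4 of the 25 that rose, in the opposite direction for 0, and did not pass for 21. Besides Ptgs2 and Gm21188, the neighbours that rose were Hand2, a transcription factor gene of gut mesenchyme and enteric neurons, next to 5033428I22Rik, and Zswim4 next to Gm26532. Hand2 and Zswim4 rose by 0.72 and 0.66 (limma adjusted p = 0.0293 and 0.0287), and 5033428I22Rik and Gm26532 by 1.01 and 0.79 (adjusted p = 0.0402 and 0.0407). edgeR kept the 2 coding genes only with wild type replicate 1 left out and the 2 lincRNAs in none of the 4 fits without 1 library. Next to the 126 uncalled lincRNAs, 30 neighbours passed, 11 higher and 19 lower. The 156 lincRNAs have 150 distinct nearest coding genes, of which 15 rose and 22 fell, where 8.34% and 11.2% of all 15894 autosomal coding genes tested did.

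The count of 9 was 20 with equal library totals, 5 with no minimum on the mean and 0 without the variance trend in limma, and in edgeR it was 5, 2, 5 and 12 with wild type replicate 1, wild type replicate 2, Elf4fl/fl-Villin-Cre replicate 1 and Elf4fl/fl-Villin-Cre replicate 2 left out in turn. Across the 156 pairs the log2 fold changes of lincRNA and neighbour had a Pearson r of 0.556 and a Spearman rho of 0.450, with the same sign in 95. The 2 values of a pair come from the same 4 libraries, and some pairs share a neighbour, so this is a description. Opposite signs also occurred. AU020206 (0.75, not passed) lies 14429 bp from Akap13, which fell by 0.81 (limma adjusted p = 0.0229, lost in edgeR with wild type replicate 2 left out), and Neat1 (0.36, not passed) lies 4224 bp from Frmd8, which fell by 0.61 (limma adjusted p = 0.0286, kept by edgeR in none of the 4 fits without 1 library).

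**Figure D4:**
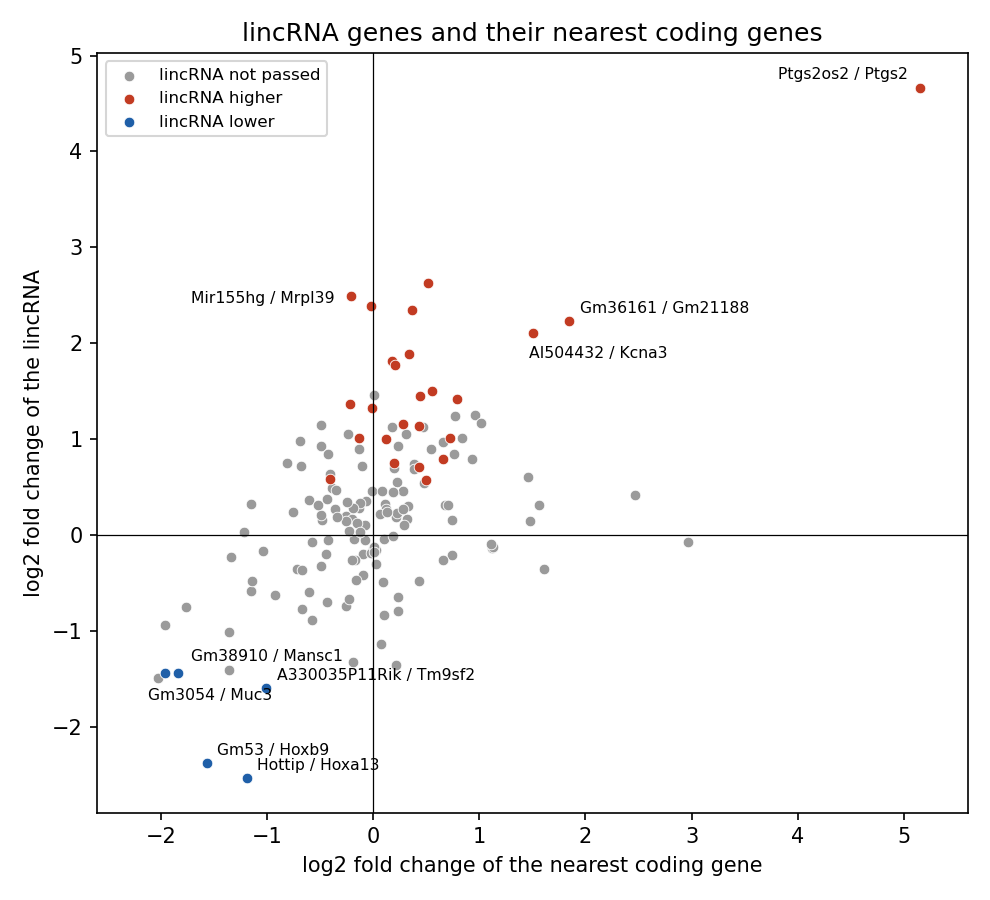
Each point is 1 of the 156 lincRNAs, with the log2 fold change of its nearest autosomal coding gene on the horizontal axis and its own on the vertical axis. The 5 lincRNAs that fell lie with their neighbours in the lower left, Ptgs2os2 and Ptgs2 lie at the upper right, and most lincRNAs that rose have neighbours near 0.

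Promoter windows of the lincRNAs were searched for 6 common motifs. A RefSeq window of 300 bases was taken for 92 of the 156 genes, and in 71 of these its start lies within 1000 bp of the GENCODE start. Searched on both strands, the ETS motif CCGGAA was in 17 of the 71 (23.9%), against 14.9% of all 32851 windows in the table. The AP-1 motif TGANTCA was in 6 (8.45%, against 7.81%), the STAT motif TTCNNNGAA in 5 (7.04%, against 8.30%), and the interferon-stimulated response element in 3 (4.23%, against 3.44%). The NF-kappa-B motif was in 1 (1.41%, against 1.47%) and the TATA box TATAAA in 10 (14.1%, against 13.6%). Each lincRNA gave 1 window, that nearest its GENCODE start, while the table holds every window of a gene, so the sets compared are unlike. A match is a string of letters and not a measured binding site, and none of these shares was tested.

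Another 3 windows are shown for called lincRNAs described above, with matches in capitals. Malat1 (GRCm38.p6, chr19:5802623-5802922, minus strand) has 1 ETS match, A330035P11Rik (chr14:122106925-122107224, minus strand), whose window reaches over the start of Tm9sf2, has 4, and Hottip (chr6:52262525-52262824, plus strand) has none of the motifs searched.
Malat1 promoter: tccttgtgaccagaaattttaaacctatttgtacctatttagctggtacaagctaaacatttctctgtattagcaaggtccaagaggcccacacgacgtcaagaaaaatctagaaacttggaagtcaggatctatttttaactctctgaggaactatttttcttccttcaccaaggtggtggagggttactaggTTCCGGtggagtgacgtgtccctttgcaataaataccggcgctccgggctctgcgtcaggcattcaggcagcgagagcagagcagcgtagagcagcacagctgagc
A330035P11Rik promoter: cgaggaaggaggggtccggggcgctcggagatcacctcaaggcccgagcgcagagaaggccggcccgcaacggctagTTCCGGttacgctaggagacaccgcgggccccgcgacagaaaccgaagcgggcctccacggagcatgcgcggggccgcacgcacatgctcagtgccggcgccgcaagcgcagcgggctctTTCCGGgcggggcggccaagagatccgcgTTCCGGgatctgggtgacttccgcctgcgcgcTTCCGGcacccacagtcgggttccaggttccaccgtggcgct
Hottip promoter: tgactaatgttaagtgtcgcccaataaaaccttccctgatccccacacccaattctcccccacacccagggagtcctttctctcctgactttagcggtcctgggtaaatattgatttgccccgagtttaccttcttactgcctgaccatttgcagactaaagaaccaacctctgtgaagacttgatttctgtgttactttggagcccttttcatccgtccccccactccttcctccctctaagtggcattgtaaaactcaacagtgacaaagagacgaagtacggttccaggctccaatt
All 5 ETS matches here read TTCCGG on the printed strand, which is the motif on the other strand. Of the 10 windows of lincRNAs that rose, 2 held the ETS motif, 3 the STAT motif and 2 the interferon-stimulated response element. The TATA box was in 1 of them and the AP-1 and NF-kappa-B motifs in 0. Over all windows these shares were, in the same order, 14.9%, 8.30%, 3.44%, 13.6%, 7.81% and 1.47%. Of the 3 windows of those that fell, 1 held the ETS motif and 0 any other motif searched. With so few windows, no share was tested.

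The 10 lincRNAs that rose outside the 10 largest increases and the role lists had log2 fold changes from 0.57 to 1.50, and their edgeR calls were lost in at least 1 of the 4 fits without 1 library. Gm14005, on a role list only under the name Morrbid, is counted among these 10. Among the 126 that did not pass, log2 fold changes ran from -1.49 (9030622O22Rik) to 1.46 (AU015791). As a share of all reads, the 156 genes took 0.457% and 0.437% in wild-type colon and 0.753% and 0.721% in Elf4fl/fl-Villin-Cre. Without Neat1 and Malat1 the shares were 0.180% and 0.174% in wild-type colon and 0.277% and 0.247% in Elf4fl/fl-Villin-Cre, higher in both Elf4fl/fl-Villin-Cre libraries. These are shares of library totals, on which scale the median of all genes tested stood at 0.40 (log2).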

How the data were processed

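The deposited signal values, read counts multiplied by 1 factor per library by the authors, were recovered from the values themselves as whole reads for 100% of values (tolerance 0.01 of a read). Per the submitters' processing notes the build was mm10, and the sources used here name no aligner, counter, annotation, strandedness or scaling tool. Ensembl identifiers were matched to GENCODE M21 without version (22376 of 22422). limma 3.58.1 (R 4.3.3, 2 residual and 4.06 prior degrees of freedom) was fitted on log2(value + 1) with a variance trend and genotype as the only term, over 22050 genes with a mean of at least 1. edgeR 4.0.16 with its quasi-likelihood test and DESeq2 1.42.0 were run on the recovered reads of 17337 and 22394 genes (DESeq2 gave 17184 of these an adjusted p), edgeR called 1713 genes higher and 2341 lower, and highest adjusted p-values over fits without 1 library are edgeR's. At 1 read per 0.814 to 1.05 normalised reads, the minimum mean of 30 corresponds to about as many reads. Genes were named when among the 8 highest means, among the 10 largest called changes each way, or on a role list, with the nearest coding gene of each called one. 9030622O22Rik, AU015791, Gm14005 and the coding neighbours of uncalled lincRNAs were named after their values were seen. Role lists were matched by GENCODE name. Gm14005, listed as Morrbid, and 1700020I14Rik, listed as Oip5os1, are therefore not in the list counts. The members, lists and tests were chosen with earlier results of these data known. Promoter and microRNA sequences are from RefSeq (GRCm38.p6). The scripts were tested on simulated data.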

Additional observations from a re-analysis of the deposited data

How the results depend on the processing

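With 2 libraries per genotype, the counts of called lincRNAs depended most on how variance was shared between genes and on which libraries were present. Against 25 lincRNAs higher, 5 lower and 9 called with their nearest coding gene, limma without the variance trend gave 0, 0 and 0, as did limma without any 1 library, and edgeR without 1 library, an alternative chosen after seeing the data, gave 8 to 24, 2 to 12 and 2 to 12. Equal library totals, which raised the median of all genes by 0.30, gave 44 higher and 20 called with a neighbour, quantile scaling, which lowered it by 0.09, gave 15 higher, and no minimum on the mean gave 5 called with a neighbour. Of the 25 higher calls, 25 were also called under equal library totals, 14 with quantile scaling and 23 by DESeq2. Elf4 kept its direction, at -1.09 without the trend (adjusted p = 0.110) and from -1.23 to -0.94 in limma without 1 library (adjusted p = 0.107 to 0.262), which missed the threshold, while edgeR without 1 library gave -1.27 to -0.96 and passed. The sign turned for 5 named lincRNAs that had not passed: AW112010 (0.15 with equal totals, 0.20 with quantile scaling, -0.51 to 0.17 without 1 library, 0.052 and 0.12 in edgeR), H19 (-0.046 with quantile scaling, -0.49 to 0.93 without 1 library, -0.077 and -0.61 in edgeR), Snhg18 (0.27 with equal totals, -0.14 to 0.051 without 1 library, 0.0070 in edgeR), 1700020I14Rik (-0.031 to 0.51 without 1 library, -0.076 in edgeR) and Tmem250-ps (0.17 with equal totals). The 36 named lincRNAs gave 648 values under the alternatives, of which 479 kept direction and side of the threshold, 132 lost the call, 19 gained one and 18 turned sign. Only a gene that had passed can lose a call, so the 132 losses are by definition those of the 20 named lincRNAs that had passed, where 228 values kept the call. Each of the 20 lost its call in limma without the variance trend, which called 0 genes of any kind. The causes were not tested. A fit with the replicate block gave 30 higher, 7 lower and 12 called with a neighbour, but the numbers are not stated to pair samples (correlation of replicate differences between genotypes 0.104 over 22050 genes and 0.252 over the 14489 with a mean of at least 30). Among named lincRNAs it added calls for AU020206, Mirt1 and Carmn (adjusted p = 0.0110, 0.0275 and 0.0495). Depth limits the least abundant genes most: Ptgs2os2, BB123696 and Mir155hg rest on 10, 16 and 17 wild-type reads.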
